A study of Macaca mulatta with 8 samples.

Results

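The common gamma chain cytokine receptors were represented by 10 genes, chosen by gene symbol among the 35432 genes of the deposited tables, and each symbol matched 1 Ensembl gene. They comprised 8 receptor chains, IL2RA, IL15RA, IL7R, IL21R, IL2RG, IL2RB, IL4R and IL13RA1, and the ligands IL15 and IL7. Poly(A) RNA was sequenced from primary microglia of rhesus macaques (Macaca mulatta), cultured from frontal subcortical white matter, in 8 libraries, 1 per condition from each of 4 adult animals. The animals were the males R07110 (13 years) and R12016 (9 years) and the females R02046 (19 years) and R14143 (6 years). Cells were grown in serum with M-CSF, a growth factor of macrophages, and at day 7 received 10 µg/mL uLPS, an ultrapure TLR4 agonist, for 16 h, alone or after 1 h with 5 µM MRS2578, an antagonist of the UDP receptor P2RY6. Both groups received uLPS and unstimulated cells were not analysed here, so each comparison below is between uLPS with and without the antagonist. The study's methods state that DMSO, the solvent of MRS2578, was used as control where the antagonist was used, while the sample labels name no solvent.

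The receptors of this family are built from chains that are reused. IL2RG, the common gamma chain, pairs with a partner for each of IL-2, IL-4, IL-7, IL-9, IL-15 and IL-21, and the receptors signal through JAK1 and JAK3 to STAT factors. IL2RA and IL15RA are alpha chains that bind IL-2 and IL-15, IL7R binds IL-7 and, outside the family, TSLP, and IL21R binds IL-21. IL2RB is the signaling chain shared by IL-2 and IL-15. IL4R is shared by IL-4 and IL-13, and IL13RA1 joins it in a receptor for both that holds no gamma chain. In macrophages IL-4 and IL-13 are known for alternative activation, IL-15 is bound and presented by IL15RA, and IL2RA is known as a gene induced on activation. IL2RA, IL15RA, IL7R and IL21R are called private chains below, and IL2RG, IL2RB, IL4R and IL13RA1 shared chains.

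Several of the genes are neighbors in the rhesus genome (NCBI annotation of Mmul_10). IL2RA (chr9:7192508-7242421) and IL15RA (chr9:7117792-7152250) lie 40257 bases apart on the minus strand of chromosome 9. IL4R (chr20:25658898-25709063) and IL21R (chr20:25743560-25791744) lie 34496 bases apart on the plus strand of chromosome 20. IL7R (chr6:35634225-35656839, plus strand) is on chromosome 6, IL2RB (chr10:14420978-14444480, plus strand) on chromosome 10, IL15 (chr5:139514695-139613055, plus strand) on chromosome 5 and IL7 (chr8:79212798-79273213, minus strand) on chromosome 8. IL2RG (chrX:68094579-68105451, minus strand) and IL13RA1 (chrX:114998940-115064518, plus strand) are both X-linked. Of the 10 genes, IL2RG had an exon that overlapped an exon of another gene, sharing 95 bases with MED12 on the opposite strand. The sources used here do not give the strand setting of the counting, so reads in those bases could not be assigned with certainty.

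To show the sequence beside the starts of private chains and of a shared chain, the 250 bases before the annotated start of the private chains IL7R and IL15RA and of the shared chain IL4R are printed from Mmul_10, 5′ to 3′ on the strand of the gene. Capitals mark matches to a pattern of NF-kB sites, GGG and CC with 5 bases of any kind between them, on either strand, in which matches on opposite strands can overlap. The windows are chr6:35633975-35634224 (plus strand) for IL7R, chr9:7152251-7152500 (minus strand) for IL15RA and chr20:25658648-25658897 (plus strand) for IL4R.
IL7R: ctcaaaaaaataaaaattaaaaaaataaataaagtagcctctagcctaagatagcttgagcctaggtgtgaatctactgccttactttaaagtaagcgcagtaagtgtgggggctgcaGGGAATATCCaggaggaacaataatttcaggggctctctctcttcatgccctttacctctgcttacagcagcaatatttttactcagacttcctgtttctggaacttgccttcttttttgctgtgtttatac
IL15RA: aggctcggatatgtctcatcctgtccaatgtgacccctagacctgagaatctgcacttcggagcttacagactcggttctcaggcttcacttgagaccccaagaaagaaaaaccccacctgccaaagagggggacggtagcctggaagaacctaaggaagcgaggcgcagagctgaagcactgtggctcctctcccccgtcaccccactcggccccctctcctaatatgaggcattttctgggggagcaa
IL4R: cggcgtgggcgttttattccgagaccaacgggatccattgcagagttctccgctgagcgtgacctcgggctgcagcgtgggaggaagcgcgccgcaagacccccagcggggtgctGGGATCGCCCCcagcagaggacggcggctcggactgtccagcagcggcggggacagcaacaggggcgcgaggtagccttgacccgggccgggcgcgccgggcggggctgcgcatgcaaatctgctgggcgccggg

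The IL7R window held 1 match, which began 132 bases before the annotated start. The IL4R window held 3, which overlapped, and none was found in the IL15RA window. Of the windows of 9 members, 5 (55.6%) held this pattern, against 54.7% of 20782 windows of the same length before protein-coding genes. GGAAA, the core of NFAT sites, was in 4 of the 9 windows (44.4%), those of IL2RA, IL13RA1, IL15 and IL7, against 53% of all windows. With 9 windows these shares are descriptions, and a match is a string of letters, not a measured site.

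Libraries held 9231109 to 32790348 counts, and values are given as CPM, counts scaled to library size with TMM. Of 11 microglia and macrophage markers in the tables, 9 were tested. They included the receptor CSF1R at 1007 to 1471 CPM, CD68 at 716 to 1289 CPM, AIF1 at 42.2 to 99.9 CPM and TREM2 at 11.7 to 39.7 CPM. Among the homeostatic microglia genes, P2RY12, also tested, was at 5.70 to 13.3 CPM. TMEM119 and CX3CR1, not tested, were at no more than 0.316 and 2.21 CPM. The target of the antagonist, P2RY6, showed a fitted log2 fold change of -0.03 ± 0.13 SE with the deposited labels (adjusted p = 0.986, edgeR's quasi-likelihood test). For R02046 the labels are in doubt. The study's supplementary list of expression values has 8 sample columns, of which 6 were proportional to the library with the same animal and condition in the labels, and the other 2, those of R02046, to the library of that animal with the opposite condition. Results are therefore given first as labelled, then after an exchange of the R02046 libraries, and then over the 3 other animals alone. Exchange turns the sign of each difference in R02046 and leaves the values of the libraries as they are. For P2RY6 the fit with the exchange gave -0.14 ± 0.11 SE (adjusted p = 0.570, edgeR's quasi-likelihood test).

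The private chains IL2RA, IL15RA and IL7R stood lower after MRS2578 than after uLPS alone in the animals R07110, R12016 and R14143, and higher in R02046 as labelled. The shared chains IL2RG, IL4R and IL13RA1 and the ligands IL15 and IL7 had fitted log2 fold changes between -0.18 and 0.05 as labelled. With the deposited labels, 0 of the 9 members tested had an adjusted p under 0.05 (edgeR's quasi-likelihood test with the animal as a block), as did 0% of the 12131 genes tested. DESeq2's Wald test and edgeR's likelihood ratio test passed 1 and 5 genes, none of them members. With the R02046 libraries exchanged, 1 of 9 passed, IL2RA, against 0.618% of all genes (0.519% lower and 0.0989% higher), and without R02046 0 of 9 passed, against 0% of 12295 genes. In the exchanged set, leaving out R14143 raised the number to 4 members and 919 genes, and leaving out R07110 lowered both to 0. At an unadjusted p under 0.05 there were 1, 5 and 5 members in the same order, where all genes had 5.14%, 16.5% and 13.6%. In bulk RNA, fewer cells that express a gene and less RNA per cell cannot be told apart.

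**Figure D1:**
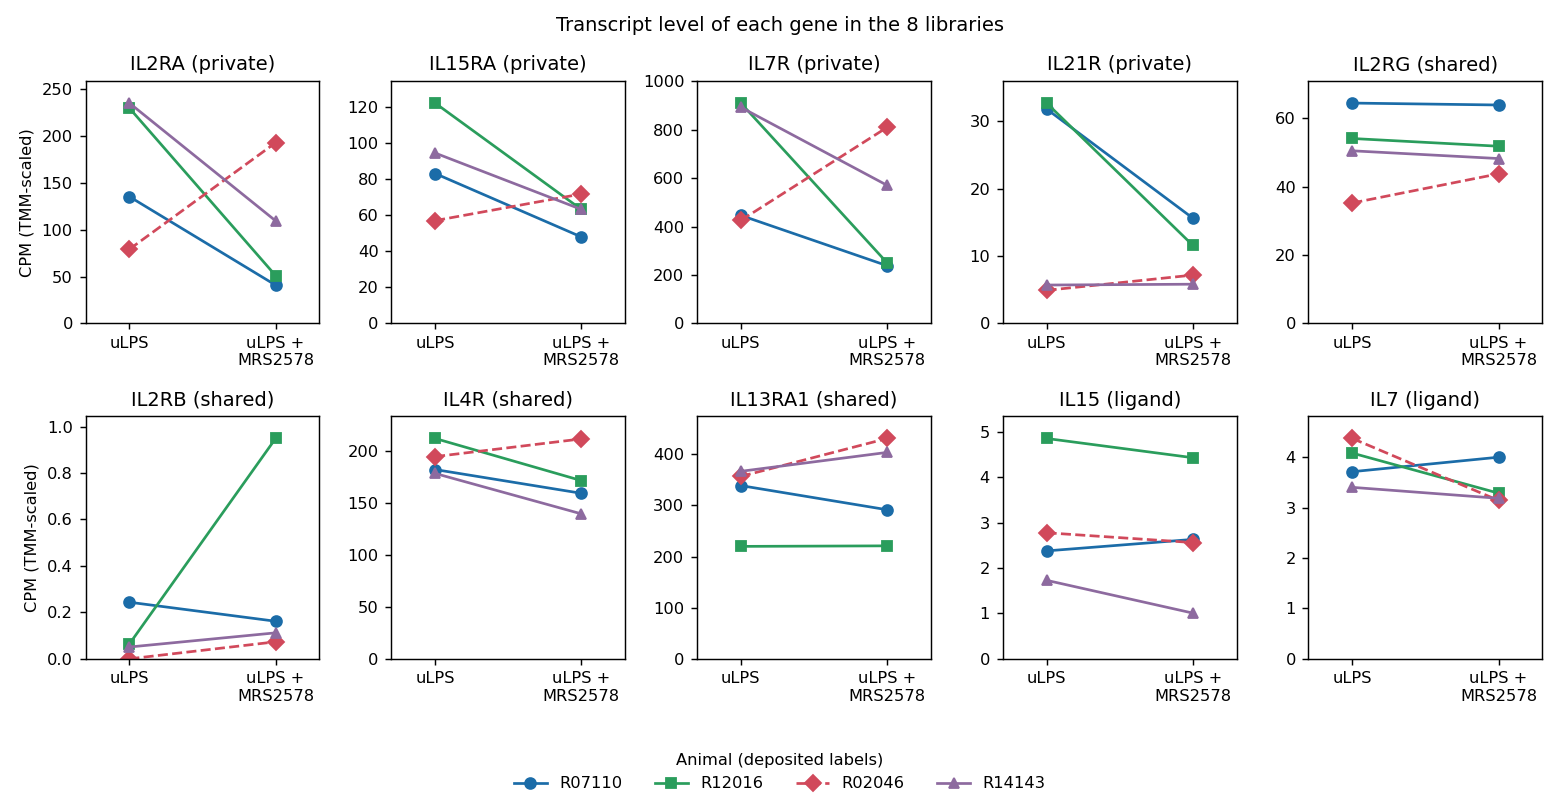
Transcript levels of the 10 genes in CPM (TMM-scaled, linear axes from 0) with uLPS and with uLPS and MRS2578. Each line joins the libraries of 1 animal as labelled, and R02046 (dashed) runs upward in IL2RA, IL15RA, IL7R and IL21R, where the 3 other animals run downward or, for IL21R in R14143, stay level at 5.69 and 5.82 CPM.

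IL2RA (ENSMMUG00000015151), the alpha chain that gives the IL-2 receptor its high affinity, had the largest fitted change of the 9 members tested. In R07110 it was at 135 CPM after uLPS alone and 40.9 CPM after MRS2578 and uLPS. In R12016 it was at 230.0 and 51.0 CPM, in R14143 at 235 and 110 CPM, and in R02046 as labelled at 79.2 and 193 CPM. The first 3 animals were thus 3.31-fold, 4.50-fold and 2.15-fold lower with the antagonist and R02046 was 2.43-fold higher. The ranges of the conditions overlapped with the deposited labels and did not overlap after the exchange, when the lowest uLPS library was at 135 CPM and the highest MRS2578 library at 110 CPM. The fitted log2 fold change of IL2RA was -1.01 ± 0.54 SE as labelled (adjusted p = 0.877) and -1.57 ± 0.17 SE (adjusted p = 0.0271) with the libraries exchanged. Over the 3 animals without R02046 it was -1.67 ± 0.21 SE (adjusted p = 0.124). With the exchange, the call was lost without R07110 (adjusted p = 0.251) and with no replicate block (adjusted p = 0.648).

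IL7R (ENSMMUG00000001676), the alpha chain for IL-7, had the highest mean per kilobase among the members that could be placed, though not in every library. Without and with the antagonist it was at 446 and 239 CPM in R07110, at 911 and 250.4 CPM in R12016 and at 893 and 571 CPM in R14143. In R02046 as labelled it was at 426 and 810 CPM. R12016 showed the widest gap, 3.64-fold, against 1.87-fold in R07110 and 1.56-fold in R14143. The ranges overlapped under both assignments, because R07110 with uLPS, at 446 CPM, was below R14143 with MRS2578. For IL7R the fit gave a log2 fold change of -0.64 ± 0.41 SE as labelled (adjusted p = 0.881), -1.08 ± 0.19 SE (adjusted p = 0.0526) with the exchange and -1.13 ± 0.24 SE (adjusted p = 0.177) without R02046.

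IL15RA (ENSMMUG00000015149), which holds IL-15 at the cell surface, differed in each animal in the same direction as IL2RA and IL7R, by less. Its levels with uLPS and with uLPS and MRS2578 were 82.9 and 47.8 CPM in R07110, 122 and 63.1 CPM in R12016, 94.3 and 63.1 CPM in R14143, and 56.9 and 71.6 CPM in R02046 as labelled. The differences in R07110, R12016 and R14143 lay between 1.49-fold and 1.93-fold. After the exchange the lowest uLPS library, at 71.6 CPM, stood above the highest MRS2578 library, at 63.1 CPM. IL2RA and IL15RA, neighbors on chromosome 9, were the 2 of 9 members whose ranges did not overlap then, in a table where 1.56% of genes did so in that direction. With the deposited labels 0 of 9 did so, against 0.412%. Fits for IL15RA gave log2 fold changes of -0.51 ± 0.21 SE (adjusted p = 0.877), -0.67 ± 0.12 SE (adjusted p = 0.0526) and -0.78 ± 0.11 SE (adjusted p = 0.124) for the deposited, exchanged and reduced sets.

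IL21R (ENSMMUG00000008252), the private chain for IL-21, differed more between animals than between conditions. Both males had it at 11.6 to 32.7 CPM and both females at 4.91 to 7.17 CPM over both conditions, with no overlap, though sex cannot be told apart from age or animal with 2 animals a sex. The level was 31.8 CPM without and 15.6 CPM with MRS2578 in R07110 and 32.7 and 11.6 CPM in R12016. In R14143 it was at 5.69 and 5.82 CPM and in R02046 as labelled at 4.91 and 7.17 CPM, from 46 to 112 counts. The lower level with the antagonist was thus seen in both males, and R14143 showed a difference of 0.03 on the log2 scale. The fit for IL21R came to a log2 fold change of -0.58 ± 0.33 SE as labelled (adjusted p = 0.877), -0.85 ± 0.24 SE (adjusted p = 0.145) with the exchange and -0.90 ± 0.28 SE (adjusted p = 0.283) without R02046.

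IL2RG (ENSMMUG00000017795), the chain common to the whole family, was nearly level in 3 animals. It was at 64.4 CPM without and 63.9 CPM with MRS2578 in R07110, at 54.1 and 51.8 CPM in R12016, at 50.5 and 48.2 CPM in R14143 and at 35.2 and 43.7 CPM in R02046 as labelled. The animals, from 35.2 to 64.4 CPM after uLPS alone, stood further apart than the conditions did within any animal. IL2RG had fitted log2 fold changes of 0.04 ± 0.11 SE (adjusted p = 0.967), -0.11 ± 0.09 SE (adjusted p = 0.619) and -0.05 ± 0.10 SE (adjusted p = 0.874) for the deposited, exchanged and reduced sets. The adjusted p did not pass in any of them, which does not show that the level was the same.

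IL2RB (ENSMMUG00000005417), the signaling chain that IL-2 and IL-15 share, was at the limit of detection. It had 8, 1, 0 and 1 counts with uLPS in R07110, R12016, R02046 and R14143, and 4, 15, 1 and 2 counts with uLPS and MRS2578. The highest value was 0.949 CPM in R12016 with the antagonist, and a count of 0 in the smallest library allows up to 0.320 CPM. IL2RB did not pass the filter on low counts, so 9 of the 10 members were tested and no fold change is given for it.

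IL4R (ENSMMUG00000004666), the chain for IL-4 and IL-13, was at 182 and 159 CPM in R07110, 212 and 172 CPM in R12016, 179 and 140 CPM in R14143 and 195 and 212 CPM in R02046 as labelled, uLPS first. It was 1.14-fold to 1.28-fold lower with MRS2578 in the 3 animals other than R02046. For the deposited, exchanged and reduced sets, IL4R came to log2 fold changes of -0.18 ± 0.11 SE (adjusted p = 0.877), -0.24 ± 0.08 SE (adjusted p = 0.204) and -0.29 ± 0.09 SE (adjusted p = 0.295). IL13RA1 (ENSMMUG00000053844), its partner for IL-13, showed no common direction. It was at 339 and 292 CPM in R07110, 219.9 and 221 CPM in R12016, 367 and 404 CPM in R14143 and 357 and 431 CPM in R02046 as labelled. R12016 lay below the other animals in both conditions. Fits for IL13RA1 gave 0.05 ± 0.11 SE as labelled on the log2 scale (adjusted p = 0.959), -0.09 ± 0.10 SE (adjusted p = 0.721) with the exchange and -0.02 ± 0.11 SE (adjusted p = 0.949) without R02046.

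The ligands were low in every library. IL15 (ENSMMUG00000019092), a survival cytokine of natural killer and memory T cells, had 18 to 78 counts. It was at 2.38 and 2.63 CPM in R07110, 4.85 and 4.43 CPM in R12016, 1.73 and 1.01 CPM in R14143 and 2.77 and 2.56 CPM in R02046 as labelled, uLPS first. R12016 was highest and R14143 lowest in both conditions. IL7 (ENSMMUG00000001655), a survival cytokine of T cells, had 41 to 122 counts. It lay between 3.40 and 4.38 CPM with uLPS and between 3.14 and 4.00 CPM with uLPS and MRS2578, with overlapping ranges. Log2 fold changes of IL15 were -0.17 ± 0.24 SE as labelled (adjusted p = 0.934) and -0.10 ± 0.24 SE with the exchange (adjusted p = 0.871). Those of IL7 were -0.17 ± 0.20 SE (adjusted p = 0.927) and 0.03 ± 0.21 SE (adjusted p = 0.960). Without R02046 the quasi-likelihood fit gave -0.16 ± 0.27 SE for IL15 (adjusted p = 0.845) and -0.08 ± 0.22 SE for IL7 (adjusted p = 0.906).

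**Figure D2:**
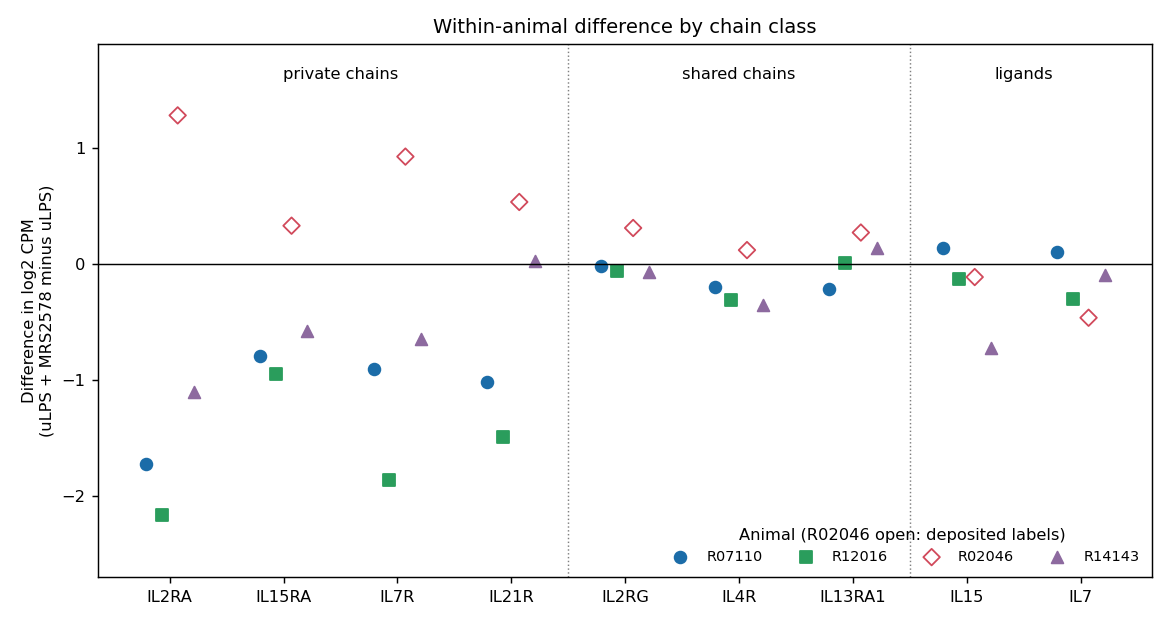
Difference in log2 CPM (prior count of 2) between uLPS with MRS2578 and uLPS in each animal, for the 9 tested members by class, with R02046 as labelled shown by open symbols. The private chains spread from -2.17 to 1.28, and the shared chains stay between -0.35 and 0.31.

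The classes were compared within each animal as medians of the log2 differences between uLPS with MRS2578 and uLPS alone. For the 4 private chains the median was -0.96 in R07110, -1.68 in R12016, -0.61 in R14143 and 0.73 in R02046 as labelled. For the 3 shared chains tested it was -0.19, -0.06, -0.07 and 0.27 in that order of animals. For the ligands it was 0.12, -0.22, -0.41 and -0.29. The private median less the shared median was thus -0.77 in R07110, -1.61 in R12016, -0.55 in R14143 and 0.46 in R02046 as labelled. In R07110 and R12016 every private chain was lower than every shared chain, and in R02046 as labelled every private chain was above every shared chain. In R14143 the private chain IL21R, at 0.03, was above the shared chains IL2RG and IL4R. Shared chains and ligands kept no common order, with the ligands higher in R07110 and lower in R12016, R14143 and R02046 as labelled. After the exchange the ligands are higher in R02046. The difference of IL2RA less that of its partner IL2RG was -1.71, -2.11 and -1.04 in R07110, R12016 and R14143 and 0.97 in R02046 as labelled.

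Over the fitted log2 fold changes, the private chains had a median of -0.61 with the deposited labels, -0.96 with the exchange and -1.02 without R02046, where the median of all genes lay within 0.01 of 0. The shared chains had medians of 0.04, -0.11 and -0.05 and the ligands of -0.17, -0.04 and -0.12. All 4 private chains had a negative fold change in each of these fits, against 52.1% of all genes with the deposited labels and 49.8% with the exchange. Of the 9 members tested, 5 stood lower after MRS2578 in all animals other than R02046, against 19.8% of all genes. They were IL2RA, IL15RA, IL7R, IL2RG and IL4R, and all 5 were higher in R02046 as labelled. Of the 2398 genes in the whole table that were lower in those animals, 1607 were likewise higher in R02046 as labelled (13.2% of all 12131 genes). IL2RA, IL15RA and IL7R were lower by more than 0.5 on the log2 scale in each of the 3 animals, against 1.33% of all genes. The genes were chosen with earlier results of these libraries known, so these shares are descriptions.

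**Figure D3:**
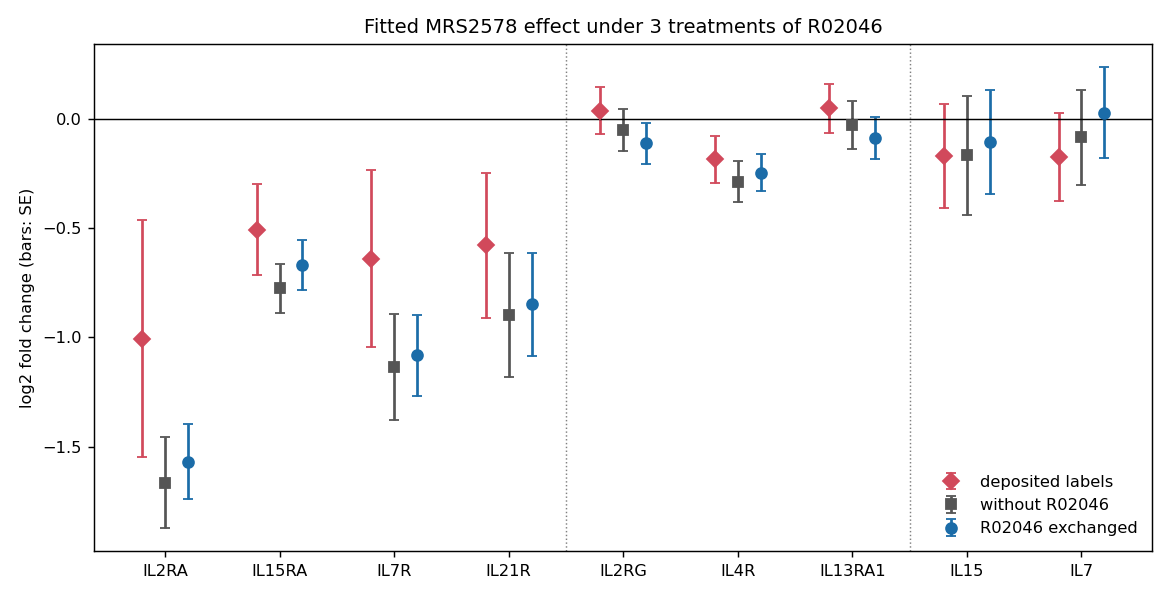
Fitted log2 fold change of MRS2578 for the 9 tested members (edgeR's quasi-likelihood test, bars are SE) with the deposited labels, without R02046 and with the R02046 libraries exchanged. For IL2RA the SE is 0.54 with the deposited labels and 0.17 with the exchange, and the shared chains lie within 0.29 of 0 in all 3 fits.

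Levels between genes were compared per kilobase of annotated exon. With uLPS, mean levels were 144 ± 58.1 CPM per kilobase for IL7R, 74.5 ± 15.8 for IL13RA1, 53.1 ± 4.21 for IL4R, 31.0 ± 7.36 for IL2RG, 26.0 ± 7.88 for IL15RA, 6.44 ± 5.34 for IL21R, 0.963 ± 0.443 for IL15 and 0.0248 ± 0.0294 for IL2RB (SD, n = 4 animals, deposited labels). The order of the means was the same with uLPS and MRS2578, from 101 ± 59.5 CPM per kilobase for IL7R to 0.0895 ± 0.116 for IL2RB. With uLPS, the SD ranges of IL7R and IL13RA1 overlapped, as did those of IL2RG and IL15RA, but these ranges reflect differences between animals. Within animals as labelled, IL7R was above IL13RA1 in each, with 91.9 against 82.9 CPM per kilobase in R02046. IL2RG was above IL15RA in R07110, R02046 and R14143 and below it in R12016, at 32.9 against 35.6. With MRS2578, IL2RG at 31.6 ± 5.25 stood apart from IL15RA at 17.9 ± 2.89 CPM per kilobase. IL2RA and IL7 were not placed, because their annotated exons, at 934 and 534 bases, are short beside the 1644 to 4631 bases of the other genes, and the exons used for counting are not used here.

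The pattern of IL2RA over the 4 animals was set beside that of all genes with a symbol and a mean of at least 10 CPM, 7980 genes. The 5 nearest, by the root mean square distance between the log2 differences, were C1QTNF1 (0.0838), STEAP4 (0.261), CLEC6A (0.353), CD38 (0.371) and SUCNR1 (0.455), against a median distance of 1.62. C1QTNF1, a secreted protein of the C1q and TNF related family, differed by -1.58, -2.18, 1.36 and -1.13 in R07110, R12016, R02046 as labelled and R14143. CD38 is an enzyme that degrades NAD, CLEC6A a lectin receptor and SUCNR1 the receptor for succinate. Among the members, IL7R was nearest to IL2RA, at 0.525, and IL21R and IL15RA followed at 0.837 and 0.940. For IL2RG the 5 nearest genes were GK5, MAML1, MOAP1, SRBD1 and TBC1D23, at distances of 0.0246 to 0.0395 against a median of 0.298. These distances do not depend on which R02046 library carries which condition.

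**Figure D4:**
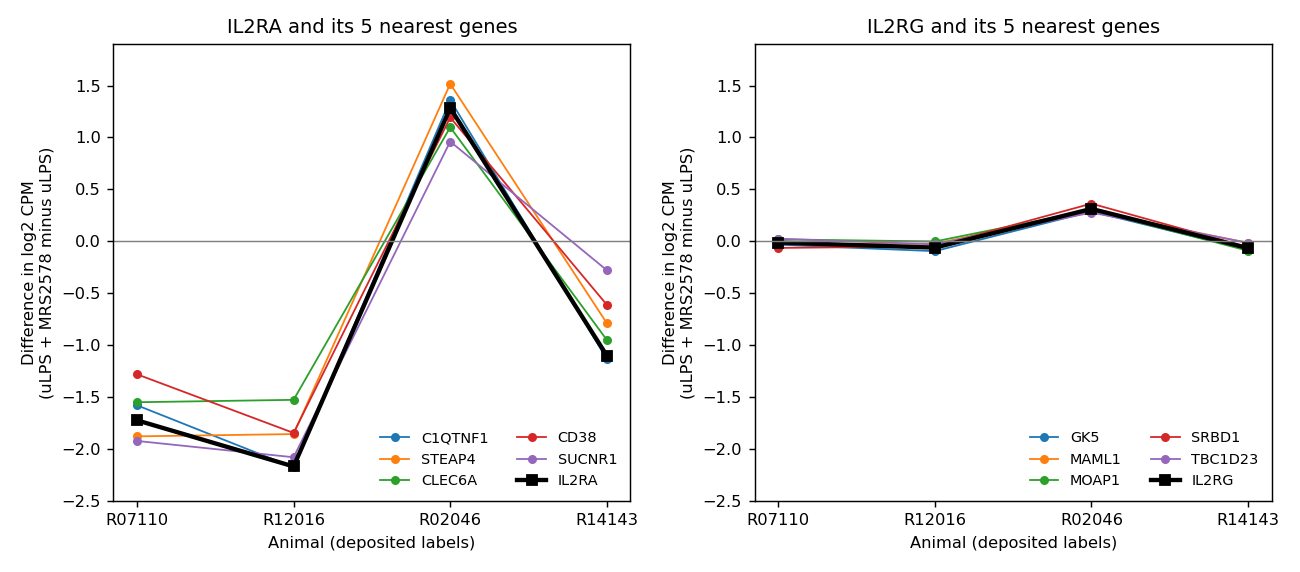
Difference in log2 CPM between uLPS with MRS2578 and uLPS in each animal as labelled, for IL2RA (left, black) and IL2RG (right, black) with their 5 nearest genes. The lines join animals for reading and mark no order, and IL2RA runs from -2.17 to 1.28 while IL2RG stays between -0.07 and 0.31.

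Of 26 further genes of the pathway, 23 were in the tables and 16 were tested, and under both assignments edgeR's quasi-likelihood test passed 0 of them at an adjusted p of 0.05. At an unadjusted p under 0.05 there were 1 of 16 as labelled and 3 of 16 after the exchange, beside 5.14% and 16.5% of all genes. DESeq2's Wald test and edgeR's likelihood ratio test also passed 0 as labelled. After the exchange they passed 1 of 16 (SOCS2) and 2 of 16 (CISH and SOCS2), beside 583 and 616 of all 12131 genes. The ligands IL2, IL4, IL9, IL13 and IL21 and the receptor chain IL9R had 0 counts in all 8 libraries, which allows up to 0.0914 CPM in the largest library and 0.320 CPM in the smallest. The kinase JAK1, at a mean of 279 CPM, differed by 0.13 ± 0.12 SE on the log2 scale as labelled (adjusted p = 0.906) and by -0.11 ± 0.11 SE after the exchange (adjusted p = 0.680). JAK3, the kinase that binds the gamma chain, was at a mean of 6.71 CPM, and its difference of 3.61 in R02046 as labelled rested on a library with 2 counts. Of 7 kinases and STAT factors, 2 had a negative log2 fold change with the deposited labels and 6 with the exchange. Of 9 target genes tested, 6 and 5 did, where 52.1% and 49.8% of all genes had a negative one. MCL1, a survival factor and the most abundant target, averaged 583 CPM without and 601 CPM with MRS2578 as labelled. CISH and SOCS2 are feedback inhibitors that STAT5 induces. CISH had a log2 fold change of -0.78 ± 0.49 SE as labelled (adjusted p = 0.877) and -1.11 ± 0.31 SE after the exchange (adjusted p = 0.144). SOCS2 had -0.83 ± 0.30 SE as labelled (adjusted p = 0.877) and -0.93 ± 0.24 SE after the exchange (adjusted p = 0.126). CISH differed by -1.08, -2.68, 0.76 and -0.35 and SOCS2 by -1.29, -0.82, 0.18 and -1.35 in R07110, R12016, R02046 as labelled and R14143, and neither passed the quasi-likelihood test. The highest of the receptor chains outside the 10 genes, IL13RA2, had 0 to 7 counts.

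IL2RA, IL7R and IL21R are also genes of lymphocytes. Of 12 T and NK cell markers in the tables, 9 had no more than 3 counts in any library, and CD3G, TRAT1, NKG7 and KLRD1 had 0. CD3D, CD3E, CD247, CD2 and LCK had at most 2 counts. The summed level of the 12 markers was 352 to 631 CPM without and 309 to 647 CPM with MRS2578, most of it CD4, at 303 to 614 CPM, which macrophages also express. The summed level of the 11 microglia and macrophage markers moved in the same direction as IL2RA in each animal. It was 4722 and 4198 CPM in R07110, 5633 and 4681 CPM in R12016, 4327 and 3862 CPM in R14143 and 4312 and 4835 CPM in R02046 as labelled, uLPS first, and its part in the results was not tested. The 4 B cell markers summed to at most 0.731 CPM. For 5 fibroblast markers the sums were 150 and 232 CPM in R07110, 90.2 and 204 CPM in R12016, 369 and 530 CPM in R02046 and 1191 and 430 CPM in R14143, uLPS first, and their part in the results was not tested.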

How the data were processed

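RNA of 8 microglia cultures was sequenced as poly(A)-selected directional libraries. The deposited values are raw read counts per Ensembl gene from unique reads within exons of Mmul_10, counted by the authors with HTSeq. The study's methods name fastp for trimming and STAR for alignment, whereas the submitters' processing notes list Trimmomatic (0.30), TopHat2 (2.0.14), SAMtools (1.3) and HTSeq (0.6.1p1). Which were used could not be settled. The labels and the methods also give different doses of M-CSF for the cultures. Annotation release and strand setting are not given in the sources used here.

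Counts were analysed in R (4.3.3) with edgeR (4.0.16): filterByExpr with a minimum count of 10, TMM scaling, and the quasi-likelihood F-test with the animal as a block, over all genes, with Benjamini-Hochberg adjustment at 0.05. SE is that implied by the test statistic. For log2 CPM a prior count of 2 was added. The block is used because both libraries of a pair come from 1 animal. Deviations from the condition means correlated within animals at 0.458 to 0.602. No libraries were duplicates (chi-square per degree of freedom of at least 19.6 over 28 pairs). Replicates are animals. On simulated counts with 200 genes changed 3-fold, the test called 210 of 12057 genes and recovered 200, and with no change it called 0. The simulated animals shared the same mean, spread and change, unlike the animals here. The simulation checks that the fit runs properly and does not show how many changed genes would be found in these libraries.

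The named genes are the 10 members, P2RY6, listed pathway genes that passed the test or were highest in their role, and the 5 nearest genes to IL2RA and IL2RG. CISH, SOCS2 and JAK3 were named after their values were seen. Members and lists were chosen with earlier results of these data known. Alternatives were DESeq2 (1.42.0), its size factors, edgeR's likelihood ratio test, other count filters, no block, each animal left out, and the exchange of the R02046 libraries, and edgeR's earlier quasi-likelihood estimation was added after the data were seen. A count of 0 allows up to 3 counts, which covers counting error only. One promoter window is not reported here.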

Additional observations from a re-analysis of the deposited data

Results flagged for a closer look

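A sample far from the others was looked for in 27 sets of 4 values, the log2 CPM of the 9 tested members in each condition and their differences within animals, and 2 were found, where chance gives about 1 in 20. The difference of IL2RG in R02046 as labelled, 0.31, was far from the 3 others, which lay between -0.07 and -0.01. With the deposited labels, the log2 CPM of IL13RA1 with uLPS in R12016, 7.78, was far below the other animals, which lay between 8.40 and 8.52. After the exchange the uLPS value of R02046 becomes 8.75, which widens the spread of the other animals, and the check was not repeated for it. IL21R was lower with MRS2578 in both males, higher in the female R02046 as labelled and nearly level in the female R14143, at a difference of 0.03, and the mean differences of the sexes were 1.54 apart on the log2 scale. This difference between the sexes was not tested. When the R02046 libraries are exchanged, the females are at -0.54 and 0.03 and the males stay lower, at -1.02 and -1.49.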

How the results depend on the processing

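With the deposited labels, 0 members passed in each alternative that kept those labels, while the count of all genes went from 0 to 1 with DESeq2's Wald test, 5 with edgeR's likelihood ratio test and 75 with the R02046 libraries exchanged, where 1 member passed. With the exchange, the 75 genes became 583 with the Wald test, 616 with the likelihood ratio test, 39 with the earlier quasi-likelihood estimation, 32 with at least 10 counts in every library and 0 with no replicate block. The 1 member called of 9 became 3 with the Wald test and 4 with the likelihood ratio test, beside those 583 and 616 of 12131 genes. With no filter on low counts 2 members passed (IL7R joined, adjusted p = 0.0482), beside 86 genes in all, and with no replicate block 0. With an animal left out of the exchanged set, genes called ranged from 0, without R07110 or R02046, to 919, without R14143, with 5 without R12016. Members called ranged from 0 to 4, again without R14143, where IL2RA, IL15RA, IL7R and IL21R passed. The private chains remained below the shared chains in each alternative run, with a difference of medians of -0.97 to -0.39 with the deposited labels and -1.004 to -0.59 with the exchange. Taking only IL2RG and IL2RB as shared chains could not move this difference. IL2RB was not tested, and IL2RG was already the median of the shared chains. Of 99 alternative fold changes of members under each assignment, 2 and 3 changed sign. With an animal left out, IL2RG ranged from -0.0473 (without R02046, changed sign) to 0.0770 and IL13RA1 from -0.0247 (without R02046, changed sign) to 0.14. With the exchange, IL15 ranged from -0.23 to 0.0273 (without R14143, changed sign) and IL7 from -0.0827 (without R02046, changed sign) to 0.14, with -0.00345 (changed sign) without R07110. The causes were not tested. IL2RB, with 15 counts or fewer in every library, was too low to test, and IL15 had 18 counts in its lowest library.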

Other observations

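Among the T and NK cell markers, CD8A was detected while CD3D, CD3E and CD3G had at most 2 counts in any library. It was at 37.0 CPM in both libraries of R07110, at 17.7 and 10.7 CPM in R12016, at 49.9 and 50.7 CPM in R02046 and at 5.69 and 6.04 CPM in R14143, uLPS first. CD8A thus varied between animals more than between conditions, and its order of animals differed from that of IL2RA, IL7R and IL21R.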
